A study of Mus musculus with 3 samples.

Results

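Of the 10 neuroectoderm and early neural genes examined in ALSCs, 4 were transcribed above the detection limit in every RNA-seq library and 6 were not. The genes were chosen by name (*Sox1*, *Pax6*, *Pax3*, *Nes*, *Tubb3*, *Pou3f2*, *Map2*, *Neurog2*, *Zic1*, and *Six3*), and all 10 were found among the 55421 named genes of the count table. ALSCs are mouse stem cells established from epiblasts of embryonic day 6.5 gastrulae with Activin A and LIF, a cytokine that activates STAT3. The embryos came from female ICR mice and GOF/GFP males, which carry an *Oct4* reporter, so all libraries share that cross. The 3 libraries (replicates 1, 2, and 3) of polyA RNA form 1 condition, and how many independent lines they represent is not given in the sources used here. No other cell type was analysed here, so the values below are levels and differences between libraries of ALSCs.

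The neural plate forms from epiblast ectoderm when Activin/Nodal and BMP signals are low. SOX1 is among the earliest factors restricted to neuroectoderm, and PAX6 marks radial glia of the forebrain and the developing eye. SIX3 and ZIC1 pattern the anterior and dorsal neural plate, PAX3 marks the dorsal neural tube and neural crest, POU3F2 (BRN2) acts in neural progenitors and neurons, and NEUROG2 is a proneural factor that starts neuronal differentiation. Nestin (*Nes*), class III beta-tubulin (*Tubb3*), and MAP2 are cytoskeletal proteins of neural progenitors, neurons, and dendrites, in that order.

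For 3 of these genes the study designed RT-qPCR primers, which are shown because they define which part of each transcript that assay reads. All lie in coding exons of GRCm38, and no pair matched a transcript of another gene in GENCODE M21. Each primer is written 5′ to 3′ in lower case.
*Sox1* forward: ggccgagtggaaggtcatgt
*Sox1* reverse: tccgggtgttccttcatgtg
*Pax6* forward: gcagatgcaaaagtccaggtg
*Pax6* reverse: caggttgcgaagaactctgttt
*Map2* forward: aaagttgcctccagttccattt
*Map2* reverse: tctttgattccgtgggcattt
The *Sox1* pair (chr8:12396618-12396637 and chr8:12396691-12396710, plus strand) bounds 93 bases of the gene's 1 exon. The *Pax6* pair (chr2:105684757-105684777 and chr2:105685789-105685810, plus strand) bounds 285 bases of spliced transcript, from exon 5 to exon 7 of 13 in the transcript matched. The pair was complete in 4 of the 11 coding *Pax6* transcripts. The *Map2* pair (chr1:66412603-66412624 and chr1:66412749-66412769, plus strand) bounds 167 bases inside exon 7 of 15 of the longest coding transcript. That exon is 3741 bases long, and 4 of 16 coding *Map2* transcripts held both primers. The RNA-seq counts, in contrast, are sums over all exons of a gene and do not separate these isoforms.

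The total count on named genes was between 18037342 and 18724038 per library, so 1 count on a gene of 1 kb was worth 0.0534 to 0.0554 FPKM. FPKM is the count scaled to the gene's length and to the library's total on named genes. A gene was called detected when it had more than 3 counts in every library, 3 counts being the limit that a count of 0 allows. Intervals and limits describe counting error alone, since the reads carry no molecular identifiers and one molecule can give several reads. Together the 10 genes took 0.0297% to 0.0350% of a library's counts. Detection was met by 4 of the 10 genes, against 27.8% of all named genes, and 3 of the 10 reached 1 FPKM in every library, against 20.1%. All 10 are protein-coding, and named genes include many that are not. Of the 21926 protein-coding genes, a closer background, 13211 were detected and 10023 reached 1 FPKM in every library. The pluripotency markers *Pou5f1*, *Sox2*, *Nanog*, *Sall4*, *Tdgf1*, and *Utf1* were all above 1 FPKM in every library (*Pou5f1*, which encodes OCT4, at 648 ± 25.3 FPKM; SD, n = 3), and long genes had relatively few counts in replicate 1. In bulk RNA, a few cells with much of a transcript and many cells with little of it cannot be told apart.

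Among the transcription factors, *Sox1* stood alone above the detection limit. *Sox1* (ENSMUSG00000096014; GRCm38 chromosome 8, 12395295 to 12400126, plus strand) had 680, 775, and 715 counts in replicates 1, 2, and 3, that is 7.78, 8.57, and 8.20 FPKM. The libraries lay close together, with a mean of 8.18 ± 0.393 FPKM (SD, n = 3), and 49.9% of expressed genes, those reaching 1 FPKM in each library, had a lower mean. No difference between libraries beyond counting error was found for *Sox1* (chi-square homogeneity test, Benjamini-Hochberg adjusted p = 0.791 over all genes tested). The noncoding *Sox1ot*, which spans the *Sox1* locus on the same strand, had only 9, 18, and 11 counts. How reads in their shared interval were assigned is not given. Of the 50-base words of the *Sox1* transcript, 99.2% occurred in no annotated transcript of another gene. The gene sharing most words with it was the microRNA gene *Gm25239*, which had no count.

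*Pax6* (ENSMUSG00000027168; chromosome 2, 105668900 to 105697364, plus strand) lay near the limit. It had 9, 3, and 10 counts, or 0.0425, 0.0137, and 0.0474 FPKM, and 3 counts on this gene would give 0.0137 to 0.0142 FPKM. It was therefore above the limit in replicates 1 and 3 and at it in replicate 2, and the test found no difference between libraries (chi-square, adjusted p = 0.18). Summed over the libraries, its 22 counts gave 0.0343 FPKM, with an exact Poisson 95% interval of 0.0215 to 0.0519. *Sox1* was above the upper end of that interval in every library. The table's length for *Pax6*, 11694 bases, is the union of the exons of 26 annotated transcripts, and on the longest coding transcript of 4427 bases the mean would be 0.0913 FPKM. The upstream antisense RNA *Paupar* had 4, 6, and 8 counts, while *Elp4*, the next gene downstream, was at 8.48 ± 0.518 FPKM (SD, n = 3).

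The other transcription factors were at or under 3 counts in each library. *Pou3f2* (ENSMUSG00000095139; chromosome 4, 22482780 to 22488366, minus strand) had 2, 2, and 0 counts. *Neurog2* (ENSMUSG00000027967; chromosome 3, 127633135 to 127635631, plus strand) and *Six3* (ENSMUSG00000038805; chromosome 17, 85613608 to 85629302, plus strand) each had 1 count, in replicate 1. *Pax3* (ENSMUSG00000004872; chromosome 1, 78101267 to 78197134, minus strand) had 1 count, in replicate 3. *Zic1* (ENSMUSG00000032368; chromosome 9, 91358058 to 91365810, minus strand) had no count in any library, which allows up to 0.0281 to 0.0292 FPKM per library. None of these genes was detectable at this depth. Their limits differed with gene length, the highest being 0.0719 to 0.0747 FPKM for the short *Neurog2*. The genes that overlap *Zic1*, *Six3*, and *Pax6* in the annotation, mostly on the opposite strand or as short noncoding RNAs, had no count either.

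Of the cytoskeletal genes, *Nes* and *Tubb3* were above *Sox1* and *Map2* was below it. *Nes* (ENSMUSG00000004891; chromosome 3, 87971078 to 87980451, plus strand) had 3447, 4440, and 4197 counts, or 29.7, 37.0, and 36.3 FPKM. Replicate 1 was the lowest, and the mean was 34.3 ± 4.01 FPKM (SD, n = 3), above 84.6% of expressed genes. *Tubb3* (ENSMUSG00000062380; chromosome 8, 123411424 to 123422015, plus strand) had 997, 952, and 918 counts, or 29.5, 27.2, and 27.2 FPKM. Here replicate 1 was the highest, and the mean was 28.0 ± 1.31 FPKM (SD, n = 3), above 81.3% of expressed genes. *Map2* (ENSMUSG00000015222; chromosome 1, 66175273 to 66442583, plus strand) had 240, 388, and 263 counts, or 0.807, 1.26, and 0.886 FPKM. It crossed 1 FPKM in replicate 2 alone, with a mean of 0.984 ± 0.242 FPKM (SD, n = 3). Its place against 1 FPKM depended on the length used, since on its longest coding transcript of 6258 bases instead of the 16449 bases of exon union it was at 2.59 ± 0.636 FPKM (SD, n = 3).

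**Figure D1:**
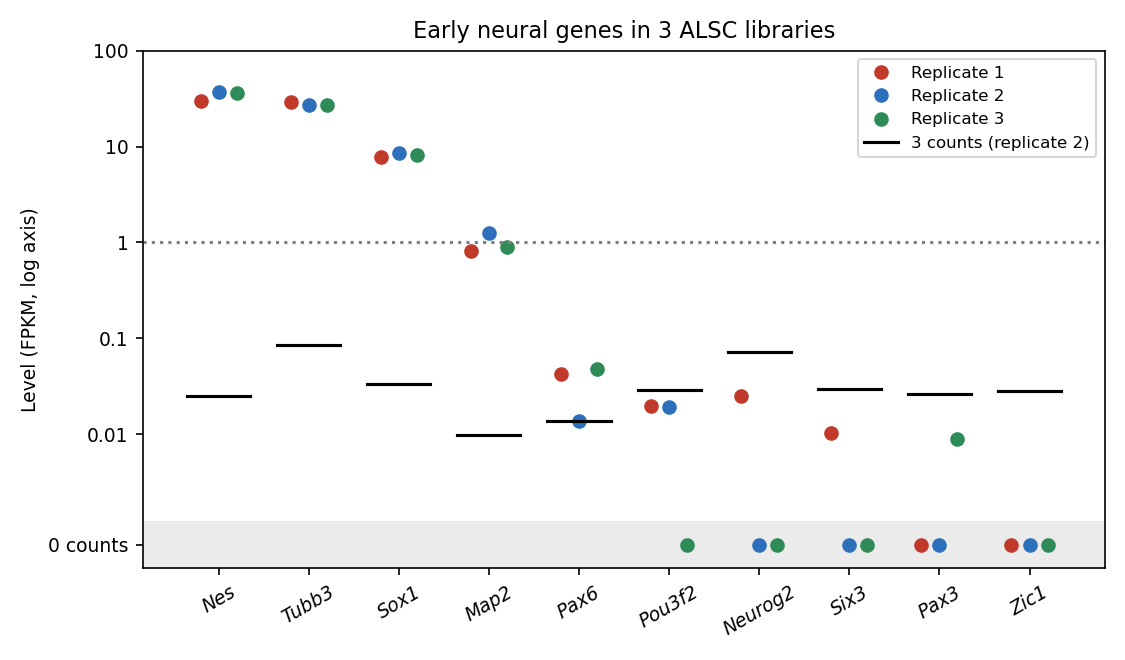
Level of each of the 10 genes in FPKM (log axis) in replicates 1, 2, and 3, with the level that 3 counts would give in replicate 2 as a black line, 1 FPKM as a dotted line, and libraries without a count in the grey band. *Nes*, *Tubb3*, *Sox1*, and *Map2* lie far above their lines, *Pax6* has replicate 2 on its line and the others above it, and the remaining 5 genes are under theirs.

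Ordered by mean level per length, the genes ran *Nes*, *Tubb3*, *Sox1*, *Map2*, and *Pax6*. Neighbours in this order had FPKM ranges that did not touch, but *Nes* and *Tubb3* were nearly equal in replicate 1. Their ratio there was 1.01, against 1.36 in replicate 2 and 1.33 in replicate 3. In TPM their ranges overlapped, at 76.1 to 107 for *Nes* and 75.6 to 78.8 for *Tubb3*. *Tubb3* was 3.18 to 3.79 times *Sox1*, and *Sox1* was 6.80 to 9.65 times *Map2*. These ratios use exon-union lengths. On the longest coding transcripts the means were 8.18 FPKM for *Sox1* and 2.59 FPKM for *Map2*, a smaller gap in the same order. The gap below *Map2* was the widest, with *Map2* 18.7 to 91.9 times *Pax6*, on the few counts of the latter. From *Pax6* downward the ranges overlapped, so no order is given among *Pax6*, *Pou3f2*, *Neurog2*, *Six3*, *Pax3*, and *Zic1*.

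Close relatives of *Zic1* and *Pou3f2* were abundant in the same libraries, and those of *Pax6*, *Pax3*, and *Neurog2* were not. ZIC proteins are zinc finger factors, of which *Zic2* was at 50.4 ± 2.03 FPKM (SD, n = 3) and *Zic5* at 18.4 FPKM, while *Zic1* and *Zic4* had no count. *Zic2* was thus at least 1653-fold higher than *Zic1* in each library, and *Zic5* at least 566-fold, taking the 3-count limit per library for *Zic1*. *Zic1* and *Zic4* overlap on opposite strands by 3398 bases on chromosome 9, and *Zic5* and *Zic2* lie on opposite strands 9757 bases apart on chromosome 14, so that in each pair both genes were present or both were without counts. Among class III POU genes, *Pou3f1* (OCT6), an epiblast and neural factor, was at 22.6 ± 1.44 FPKM (SD, n = 3). Over the summed counts its level was 1731 times that of *Pou3f2*, with a counting interval of 675 to 6354 that reflects the 4 counts of *Pou3f2*. *Pou3f4* was at 0.31 FPKM, and *Pou3f3*, like *Pou3f2*, was at or under 3 counts in each library.

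*Sox1* was second among the SoxB genes, which bind DNA through an HMG box. *Sox2*, which serves both pluripotent and neural cells, was at 119 ± 5.21 FPKM (SD, n = 3), or 14.6 ± 0.743 times *Sox1* (SD of the ratio, n = 3). *Sox3* was at 0.473 ± 0.0388 times *Sox1* (SD of the ratio, n = 3), and *Sox21* and *Sox14* followed far below. *Sox1* made up 6.23% ± 0.285 (SD, n = 3) of the summed FPKM of the 5 genes. None of the 9 *Pax* genes reached 1 FPKM in every library. *Pax8* was the highest at 0.294 FPKM, then *Pax2* at 0.0709 FPKM and *Pax6*, while *Pax1*, *Pax4*, and *Pax9* had no count. Of the relatives of *Six3*, *Six5* reached 5.41 FPKM and *Six4* 0.536 FPKM. All 3 neurogenin genes were under the limit, *Neurog1* and *Neurog3* without a count.

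*Tubb3* was a minor beta-tubulin in these cells. It ranked 6 of 8 by mean level and made up 2.01% ± 0.0189 (SD, n = 3) of the summed beta-tubulin FPKM. *Tubb5*, the general isotype of dividing cells, was 30.9 ± 0.145 times *Tubb3* (SD of the ratio, n = 3), and *Tubb4a* was 0.962, 1.09, and 1.05 times *Tubb3* in replicates 1, 2, and 3, which left these neighbours unordered. All 50-base words of the longest *Tubb3* transcript occurred in no transcript of another gene. For *Tubb4b*, *Tubb2a*, and *Tubb2b* the figures were 44.5%, 50.4%, and 60.7%, so the levels of those 3 relatives are uncertain. The rank and share of *Tubb3* depend on those levels. *Gm20388*, which spans *Tubb3* on the same strand, had no count, and how reads in their shared interval were assigned is not given. On exon-union lengths, *Map2* ranked 5 of 6 structural microtubule-associated protein genes. It was below the general *Map4* at 10.1 FPKM and above the axonal *Mapt* (tau) at 0.148 FPKM. That rank depends on the length used. *Map1a*, the next above, was at 1.43 FPKM on 12166 bases, and its longest coding transcript has 11825. *Map2* was at 2.59 FPKM on its longest coding transcript, and ranks on such lengths were not computed. *Nes* was second to *Vim* among intermediate filament genes, with *Vim* at 2.15 ± 0.433 times *Nes* (SD of the ratio, n = 3). The neuronal filament genes *Prph* and *Ina* came next at 21.6 and 18.9 FPKM.

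**Figure D2:**
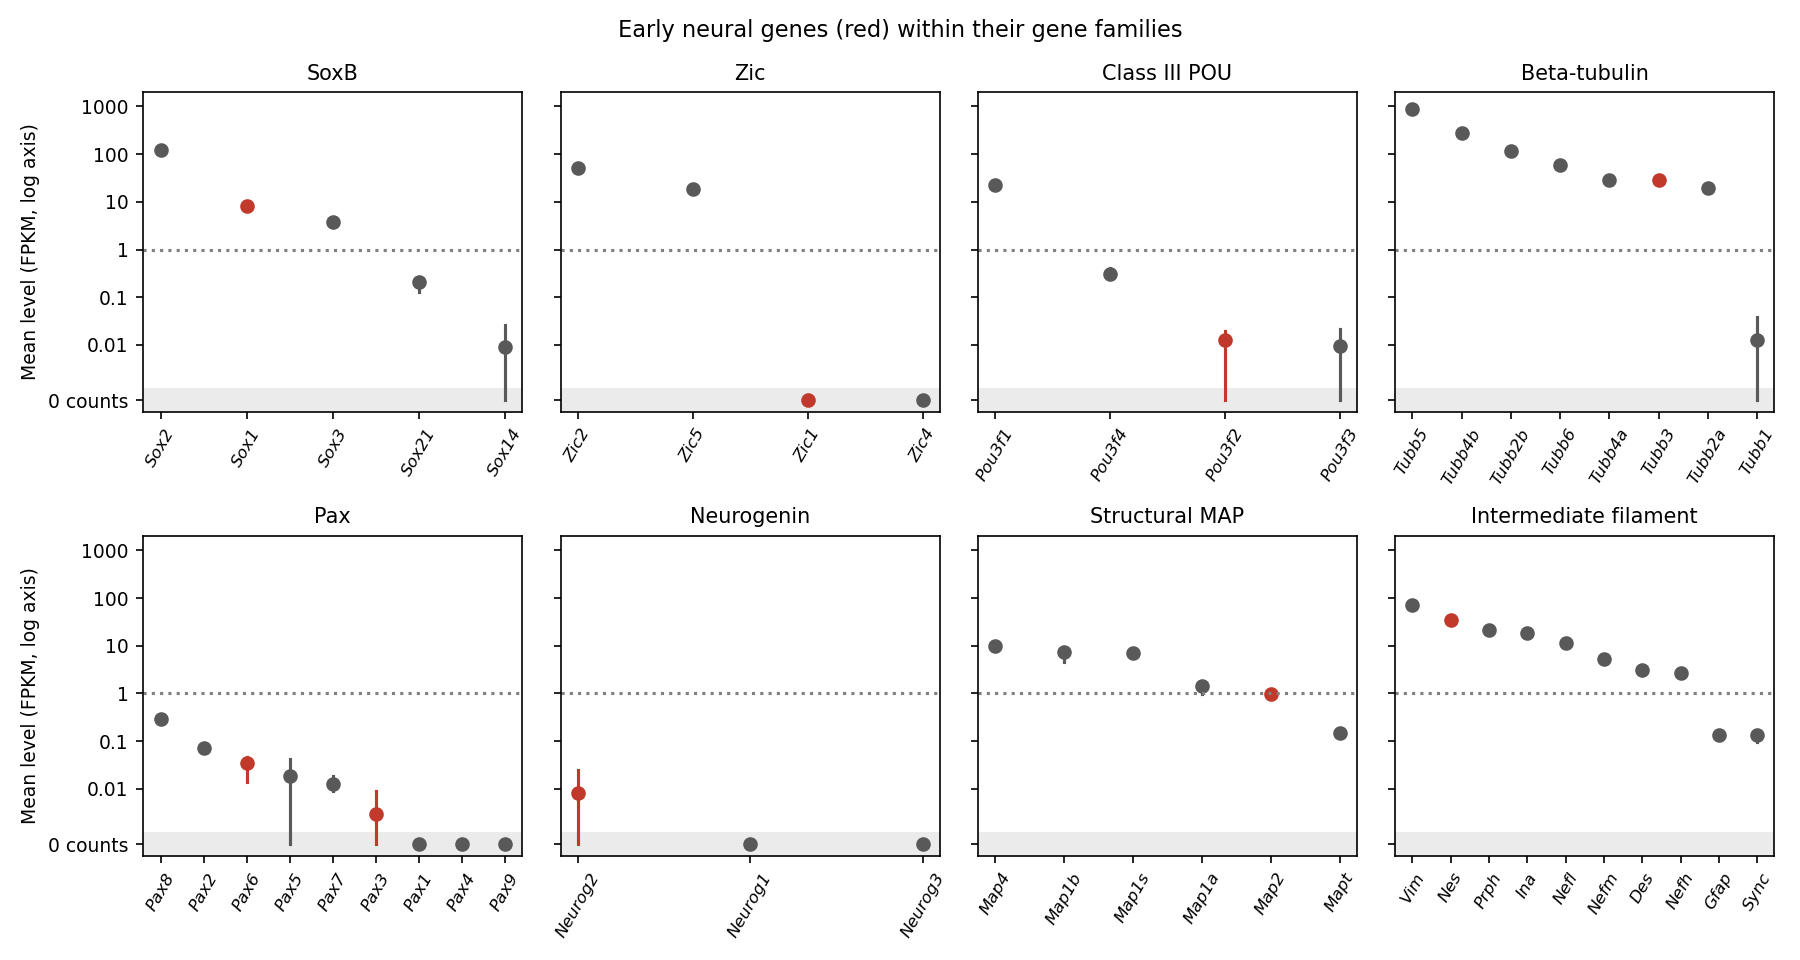
Mean FPKM (log axis) of genes of 8 families, with the lowest and highest library as a bar, the early neural genes in red, 1 FPKM as a dotted line, and genes or libraries without a count in the grey band. *Zic1* sits in the band beside *Zic2* at 50.4 FPKM, *Pou3f2* far below *Pou3f1* at 22.6 FPKM, and *Tubb3* at rank 6 among the 8 beta-tubulins.

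Further neural genes were described by lists, chosen with earlier results of these data known. Of 20 other neural plate and neural progenitor genes, 15 were detected and 14 reached 1 FPKM in every library. The highest were *Sox2*, *Zic2*, *Pou3f1*, and *Sox11* (19.0 ± 1.92 FPKM; SD, n = 3), a SoxC factor of neural and other progenitors. At the other end, *Lhx2* and *Nr2f1* had at most 7 counts in a library. Of 15 proneural and neuronal genes, 12 were detected and 7 reached 1 FPKM. *Tubb2b* (117 FPKM), the stathmin gene *Stmn2* (114 ± 11.8 FPKM; SD, n = 3), *Gap43* (37.9 FPKM), and *Ina* led the list. *Stmn2*, which acts in growing axons, exceeded all 10 early neural genes in every library, and the range of the axonal *Gap43*, 35.7 to 42.1 FPKM, overlapped that of *Nes*. The proneural gene *Neurog1* had no count. *Dcx* and *Rbfox3*, which mark young and mature neurons, were detected but low, at 0.0688 and 0.225 FPKM. *Dcx* had 8, 24, and 16 counts and *Rbfox3* had 18, 34, and 20. Other genes of the list were higher. *Nefl*, *Nefm*, and *Elavl3* reached 1 FPKM in every library, at means of 11.2, 5.23, and 2.01 FPKM, and the proneural *Neurod1* was detected at 0.687 FPKM. *Nefl* lies within the span of *Nefm* on the opposite strand, and the reads carry no strand information. Sequence unique to the gene, scored in 50-base words, was 68.2% for *Nefl* and 70.7% for *Nefm*. Each shared the most words with the other, so the levels of *Nefl* and *Nefm* are uncertain. The low members of these lists were picked for naming after their values were seen. Of 10 dorsal neural tube and neural crest genes, 5 were detected and 1, *Sox9* at 2.01 FPKM, reached 1 FPKM in every library, followed by the crest genes *Foxd3* at 1.15, *Sox10* at 0.345, and *Snai2* at 0.273 FPKM. Of 6 glial genes, 3 were detected and none reached 1 FPKM in every library, with *Mbp* at 0.946 and *Olig1* at 0.347 FPKM and with *Olig2*, *S100b*, and *Aqp4* at 0 counts.

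The median of the mean levels was 0.0238 FPKM for the 10 early neural genes, 3.45 FPKM for the neural plate and progenitor list, and 0.687 FPKM for the neuronal list, against 0.682 FPKM for all 21926 protein-coding genes and 0 for all named genes. For comparison, 8 of 10 primitive streak and mesoderm markers were detected and 4 reached 1 FPKM, led by *Fgf8* at 48.9 FPKM. Of 10 endoderm markers, 6 were detected and 3 reached 1 FPKM, led by *Cer1* at 5.14 FPKM. These lists differ in length and make-up, and no difference between them was tested. *Nes* and beta-tubulins are also found outside the neural lineage, so markers of other cell types were counted. Of 6 fibroblast markers 2 were detected, their summed level was 0.188 to 0.414 FPKM per library, and *Dcn* and *Lum* had no count. Of 5 endothelial markers 3 were detected, their summed level was 0.606 to 1.17 FPKM, and *Emcn* had no count. Of the glial list, the defining *Gfap* was at 0.138 FPKM. Whether such cells had a part in the level of *Nes* or *Tubb3* was not tested.

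**Figure D3:**
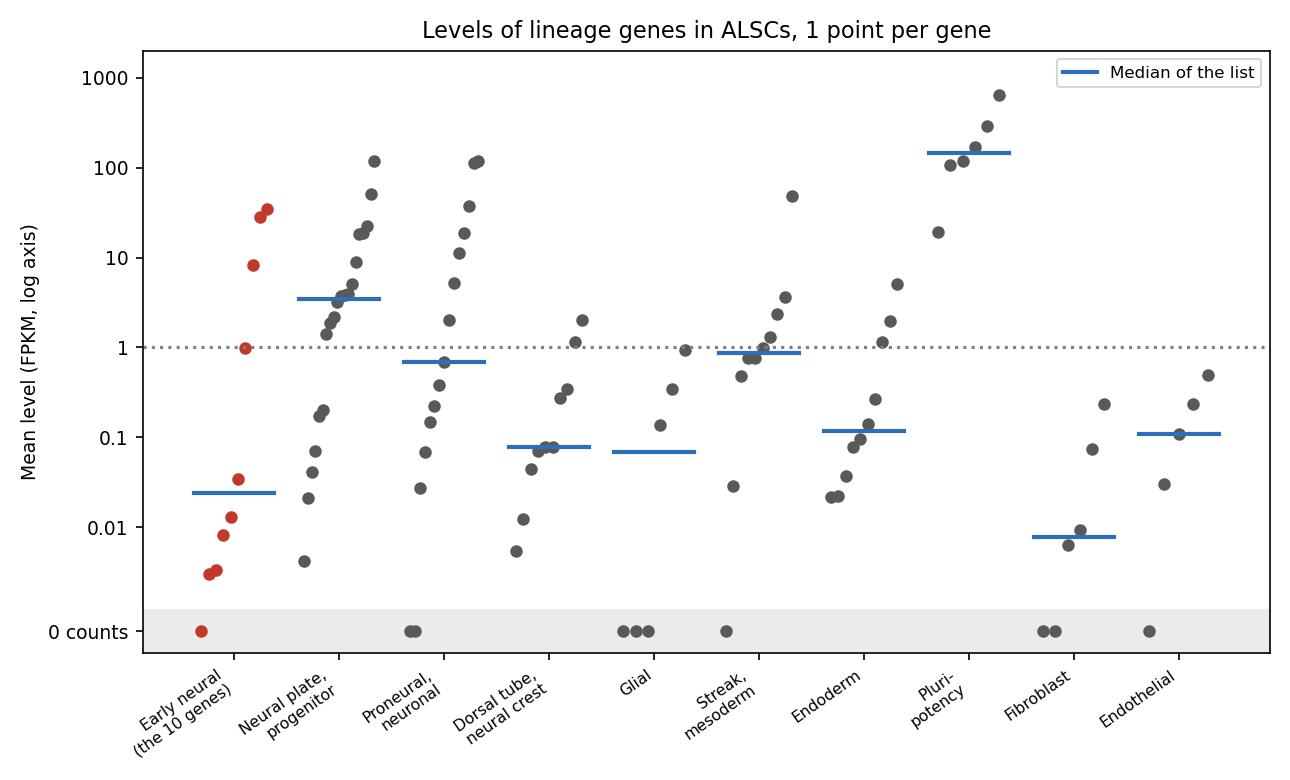
Mean FPKM (log axis) of every gene of 10 lists, 1 point per gene, with the median of each list in blue, 1 FPKM as a dotted line, and genes without a count in the grey band. The 10 early neural genes (red) split into 4 points at 0.984 FPKM or more and 6 points at 0.0346 FPKM or less.

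Differences between libraries were tested gene by gene with chi-square against TMM library sizes, over all genes with at least 10 counts in total. The test compares these libraries with counting error and not conditions with each other. It could be run for 5 of the 10 genes and called 3 of them, *Nes*, *Tubb3*, and *Map2*, against 47.2% of the 16944 genes tested. The adjusted p was 9.69e-14 for *Nes*, 0.0113 for *Tubb3*, and 1.93e-06 for *Map2*. Of the other lists, 6 of 18 neural plate and progenitor genes and 7 of 12 neuronal genes that could be tested were called. After subtraction of the trend on gene length described next, 5 and 5 of them were called, and without replicate 1, where 16 and 12 could be tested, 2 and 2. Against the mean of the other libraries, the log2 ratio of replicate 1 was -0.23 for *Nes*, 0.19 for *Tubb3*, -0.34 for *Map2*, and -0.04 for *Sox1*. The biological coefficient of variation that edgeR estimated per gene was 0.129 for *Nes*, 0.124 for *Tubb3*, 0.117 for *Sox1*, and 0.169 for *Map2*. These estimates are drawn toward a trend over all genes, at 0.141 to 0.149 for these 4. They are therefore not a gene's own spread alone, and for *Sox1* the chi-square test found none beyond counting error. The value in common for all genes was 0.153. It was 0.053 without replicate 1, 0.175 without replicate 2, and 0.194 without replicate 3.

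For *Nes* and *Tubb3* the ratios lay near those of other genes of their length. Median log2 ratios of replicate 1 to the mean of the 3 libraries ran from 0.249 for the shortest genes to -0.372 for the longest, and at the lengths of *Tubb3* (1868 bases) and *Nes* (6416 bases) they were 0.18 and -0.107. After subtraction of this trend, replicate 1 stood to the others at a log2 ratio of -0.08 for *Nes* and -0.09 for *Tubb3*, and neither was called (chi-square test, adjusted p = 0.0517 and 0.366), while 38.5% of all genes tested were. Without replicate 1 neither was called (adjusted p = 0.954 for *Nes* and 0.891 for *Tubb3*), and the call of *Tubb3* was lost with plain totals in place of TMM sizes too (adjusted p = 0.199).

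*Map2* behaved differently. It was the 1 gene of the 5 still called between replicates 2 and 3 (chi-square test, adjusted p = 0.000933), where 8.11% of all genes tested were called. It was also the 1 gene called after the length trend was removed (adjusted p = 0.00155). Replicate 2 was the high library, at a log2 ratio of 0.33 to the mean of the 3 libraries, against -0.24 in replicate 1 and -0.16 in replicate 3. Without replicate 2 it was not called (adjusted p = 0.664). At the length of *Map2*, the trend was -0.372 in replicate 1 and 0.123 in replicate 3. Removing it left replicate 3 lowest, at -0.29, with 0.12 and 0.13 in replicates 1 and 2. These trend values are those of the longest group of genes (median 15642 bases), since the 16449 bases of *Map2* lie beyond it. Its longest coding transcript has 6258 bases. In the group with a median of 6119 bases the trend was -0.0909, 0.0442, and 0.0357 in replicates 1, 2, and 3. Removal at that length was not run. The 3 genes annotated within *Map2* (*Gm10558*, *Gm24729*, and *Gm25411*) had no count.

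**Figure D4:**
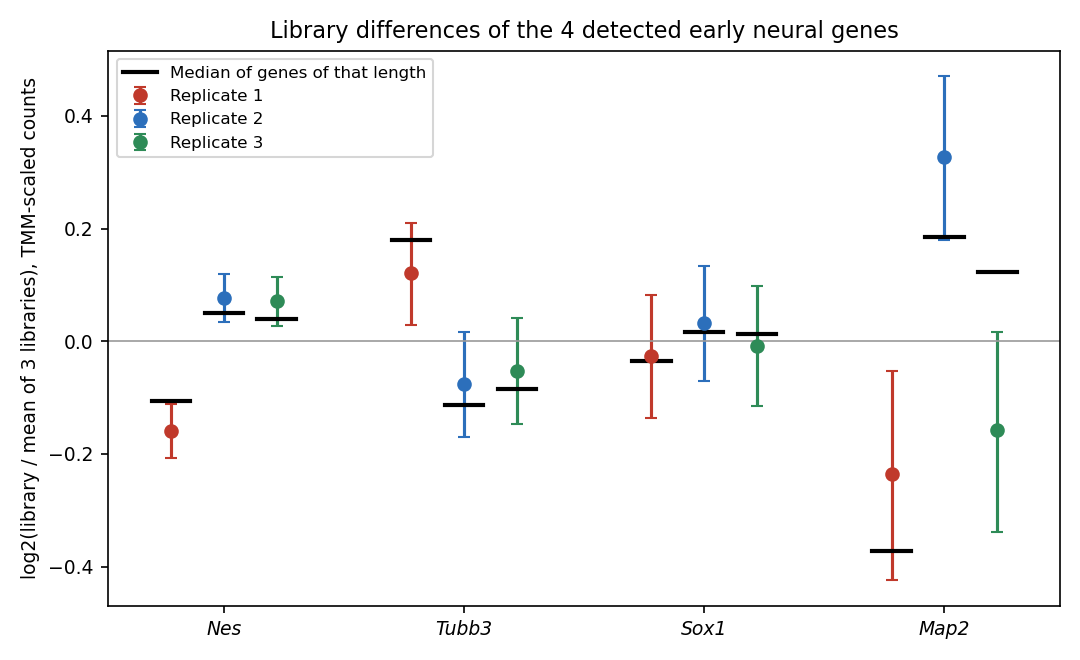
Log2 ratio of each library to the mean of the 3 libraries (TMM-scaled counts) for the 4 detected genes, with exact Poisson 95% intervals as bars and the median of genes of that length in the same library as a black line. For *Nes*, *Tubb3*, and *Sox1* the lines lie inside the intervals, except for *Nes* in replicate 1. There the line, at -0.107, is just above the upper end of the interval, at -0.111. For *Map2* the point of replicate 3, at -0.16, lies below its line at 0.123.

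Promoter sequence was compared between the detected and the undetected genes. RefSeq windows (GRCm38.p6, 250 bases before to 50 after the start) were found for 9 of the 10 genes, not for *Pax3*, with a second window for *Pax6*. The windows held 10 to 37 CpG dinucleotides, against a median of 7 over 32841 windows of the same length. The 4 detected genes had 37 (*Sox1*), 37 (*Map2*), 26 (*Tubb3*), and 18 (*Nes*). Among the undetected genes *Zic1* had 31, *Pou3f2* 24, *Pax6* 18 and 16, *Six3* 14, and *Neurog2* 10, so the ranges overlapped. The windows of *Sox1*, at 8.18 FPKM, and *Zic1*, without a count, are shown as CpG-dense promoters of a detected and an undetected gene, 5′ to 3′ with each CpG in capitals.
*Sox1* (chr8:12395269-12395568, plus strand): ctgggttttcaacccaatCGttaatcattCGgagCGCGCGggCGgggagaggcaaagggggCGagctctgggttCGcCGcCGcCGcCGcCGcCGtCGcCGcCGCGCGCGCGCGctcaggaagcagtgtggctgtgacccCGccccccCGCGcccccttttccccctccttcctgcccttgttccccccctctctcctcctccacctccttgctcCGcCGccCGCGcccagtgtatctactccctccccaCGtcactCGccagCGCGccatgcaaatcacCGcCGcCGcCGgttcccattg
*Zic1* (chr9:91365719-91366018, minus strand): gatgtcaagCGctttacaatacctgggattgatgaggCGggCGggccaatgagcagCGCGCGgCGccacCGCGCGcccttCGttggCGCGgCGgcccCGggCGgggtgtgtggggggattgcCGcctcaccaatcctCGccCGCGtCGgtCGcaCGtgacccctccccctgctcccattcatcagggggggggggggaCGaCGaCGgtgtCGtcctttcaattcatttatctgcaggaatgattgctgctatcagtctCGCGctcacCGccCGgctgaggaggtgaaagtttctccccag
More CpGs than in 94.4% of all windows were counted for *Sox1*, and more than in 89.4% for *Zic1*. The octamer ATGCAAAT, the letters bound by POU factors such as OCT4, was searched on both strands after the *Sox1* window had been read. It occurred in 1 of the 10 windows of these genes, that of *Sox1*, and in 1.74% of all windows. A match of letters is a description of the sequence and not evidence of binding.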

How the data were processed

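The 3 ALSC libraries of polyA RNA were sequenced at both ends, and the authors aligned the reads to GRCm38. The submitters' processing notes name HISAT2 2.0.5, and the counting program and its handling of strand are not given in the sources used here. The labels name TRIzol and the methods a column kit for RNA extraction. The TruSeq kit named does not mark strand, so antisense reads cannot be separated. The authors deposited raw counts per gene, without normalization, together with gene lengths. The table's 3 other columns of per-sample values match no sample of the series and were not used, nor were 317 rows without a gene name, which held 0.165% to 0.182% of counts. FPKM used the table's gene length, which equals the exon union of GENCODE M21, and totals on named genes. Counts of all named genes with at least 10 in total were tested between libraries with a chi-square test of homogeneity, Benjamini-Hochberg adjusted at 0.05, against TMM sizes (edgeR 4.0.16, R 4.3.3). DESeq2 1.42.0 gave alternative size factors. Python 3.11.15 and SciPy 1.17.1 were used. The test was tested on simulated data. The trend on gene length was the median log2 ratio in groups of equal size over genes with many counts. The genes and lists were named by hand and were chosen with earlier results of these data known. The text names all 10 genes, the 4 highest of each neural list, some further members of these lists, defining markers without counts, family members, and overlapping or nearest genes. A few list and family genes are counted but not reported here by name. P-values set the spread between libraries against counting error, and the study calls the libraries biological replicates without saying whether the cultures were separate.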

Additional observations from a re-analysis of the deposited data

How the results depend on the processing

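No paired analysis was possible because there is only 1 condition, with 3 libraries. The number of early neural genes that varied between libraries fell from 3 to 1 with the trend on gene length removed and was 1 to 3 when a replicate was left out, the 1 being without replicate 1. In both of those settings the remaining gene was *Map2*. The other settings (size factors, plain totals, the filter on low counts, and the exact multinomial test) gave 2 or 3. The number of genes detected was 4 or, without replicate 2, 5 with *Pax6* included, and the number at 1 FPKM 3 or 4 under the settings run, including, for the latter, the length of the longest coding transcript, a setting chosen after seeing the data. Mean levels moved by more than 1 SD in 9 recomputed values and by less in 71. Of the 9, 7 were the change of unit to TPM and 2 the shorter length of *Pax6* and *Map2*. A mean of 3 libraries cannot shift by its SD when 1 is dropped, so those values are no check of stability. Depth limits the 5 genes at or under 3 counts, for which levels below about 0.03 FPKM (0.0747 for *Neurog2*) could not be seen.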

Other observations

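Some neural genes outside the 10 differed in replicate 1, and the trend on gene length bore on them unequally. *Stmn2* had 12930, 11086, and 11034 counts in replicates 1, 2, and 3 (chi-square test, adjusted p = 5.44e-88), and was called with the length trend removed (adjusted p = 7.48e-159) and without replicate 1 (adjusted p = 0.00863). *Fabp7*, a fatty acid binding protein gene of radial glia, had 125, 75, and 68 counts (adjusted p = 6.66e-06), with an adjusted p of 0.0202 with the trend removed and 0.917 without replicate 1. *Gap43* had 1161, 1019, and 982 counts (adjusted p = 2.58e-07) and *Sox11* had 2535, 3198, and 2939 (adjusted p = 1.15e-06). Neither was called with the trend removed (adjusted p = 0.925 and 0.177) or without replicate 1 (adjusted p = 0.892 and 0.515). These genes were picked after their values were seen, and these settings were added after seeing the data.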
